A study of Homo sapiens with 6 samples.

Results

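The genes described here are 9 genes known for long noncoding transcripts and 1 protein-coding gene: *MALAT1*, *NEAT1*, *MEG3*, *H19*, *TUG1*, *DLEU2*, *GAS5*, *SNHG1*, *SNHG5* and *EPB41L4A*. They were chosen by gene symbol, and all 10 of 10 symbols had a line among the 21863 symbols of the deposited table. RNA was sequenced from Hep G2, a cell line from a human liver tumor, in 6 libraries with 1 library for each combination of RNA and condition. The 3 conditions were cells transfected with 5 nM of dsRNA mimicking *miR-195* and collected at 24 h, cells transfected in the same way with dsRNA mimicking *miR-497*, and non-transfected cells (NT), whose label gives a time of 0 h. No library of cells given a control dsRNA is part of this experiment, so the effect of transfection itself and that of a mimic cannot be told apart. In each condition RNA bound by an antibody against Ago2 (Ago2-IP) and total RNA of the cells were sequenced. Values are RPKM, read numbers scaled to gene length and library size. With 1 library per group no comparison within a condition or between conditions has a test. Ago2-IP and total RNA were tested over the 3 conditions as pairs, and every interval below is a 95% interval for counting error only, from read numbers inferred from the RPKM.

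Long noncoding RNAs are transcripts without a long open reading frame, and they act in different places. MALAT1 stays in nuclear speckles, the short and long forms of NEAT1 are found at paraspeckles, which the long form builds, and MEG3 is a mainly nuclear RNA of an imprinted locus. H19 is an imprinted RNA that is mainly cytoplasmic and carries *miR-675*, TUG1 is found in both compartments, and the primary transcript of *DLEU2* carries *miR-15a* and *miR-16-1*. *GAS5*, *SNHG1* and *SNHG5* are snoRNA hosts: snoRNAs, which guide chemical modification of other RNAs in the nucleolus, are cut from their introns, while the spliced exons are exported and degraded by nonsense-mediated decay. *EPB41L4A* encodes a protein of the band 4.1 family. The snoRNA host at that locus is the gene on its other strand, *EPB41L4A-AS1*, which the table lists under the older name NCRNA00219. Ago2 is the protein that holds a miRNA and, through it, the RNAs that pair with the miRNA.

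The cells carried their hepatoma markers, with NT total RNA RPKM of 4884 for *AFP*, 671 for *SERPINA1*, 635 for *APOA1*, 386 for *TF* and 61.4 for *ALB*. The RPKM steps imply 24734651 to 30968420 mapped reads for the total RNA libraries and 10653781 to 16829848 for those of Ago2-IP. The RPKM of all genes summed to between 311114 and 333420 in total RNA and to between 67345 and 116069 in Ago2-IP, so a gene with an equal share of the gene reads had a lower RPKM in Ago2-IP. The median ratio of Ago2-IP to total RNA RPKM was 0.326 over 14101 genes in NT cells, 0.469 over 14587 genes with *miR-195* and 0.26 over 14000 genes with *miR-497*. Ratios are therefore given as deposited and also relative to this median.

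The mature miRNAs are shown because DLEU2 carries relatives of both mimics. Capitals mark the seed, bases 2 to 8, and U is written as in RefSeq.
miR-195-5p: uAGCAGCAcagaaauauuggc
miR-497-5p: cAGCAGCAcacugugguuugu
miR-15a-5p: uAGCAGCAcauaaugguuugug
miR-16-5p: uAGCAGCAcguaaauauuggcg
All 4 have the seed AGCAGCA. The *miR-195* sequence lies at chr17:7017667-7017687 and that of *miR-497* at chr17:7017979-7017999, both on the minus strand of GRCh38.p14, the build of the RefSeq sequences, while all other coordinates here are on GRCh37, also called hg19. The hairpins of *DLEU2* were looked up after the values had been seen. *MIR16-1* was listed at 0 in all 6 libraries. *MIR15A* had an Ago2-IP RPKM of 0.716 for NT cells and 1.13 for *miR-497*. It was listed at 0 elsewhere, the *miR-195* precipitate included. In a gene as short as a hairpin such values rest on few reads. They do not show that *MIR15A* was absent from total RNA. The lines of *MIR195* and *MIR497* were at 0 in all 6 libraries. These are lines of the hairpin genes and do not measure the mimics. By miRNA microarray, the study reports a higher rate of each transfected miRNA in its Ago2-IP fraction. It also reports increased rates of other miRNAs there. The study proposes that targets of such miRNAs are among the trapped mRNAs as false positives.

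The sequence that pairs with this seed, TGCTGCT, was searched on the sense strand of the spliced transcripts of each gene in GENCODE release 44. The sites below are a part of the matches found, from *MALAT1*, *NEAT1*, *TUG1*, *DLEU2* and *SNHG1*, and that of *SNHG1* lies outside the canonical transcript. The remaining sites are only counted. Capitals mark the 7 bases that pair with the seed, and the coordinates are those of the capitals.
MALAT1 site 1, chr11:65265404-65265410, plus strand: gcagcgacgagttgTGCTGCTa
MALAT1 site 2, chr11:65265963-65265969, plus strand: aagcagacagcccgTGCTGCTc
NEAT1 site 1, chr11:65209703-65209709, plus strand: cctcgccttcacgcTGCTGCTg
NEAT1 site 2, chr11:65210763-65210769, plus strand: gtctgtggactgctTGCTGCTt
NEAT1 site 3, chr11:65211521-65211527, plus strand: gaatgtttcctctcTGCTGCTg
TUG1 site 1, chr22:31366577-31366583, plus strand: tcaactctgttatcTGCTGCTt
DLEU2 site 1, chr13:50645734-50645740, minus strand: ggctgggagatcgaTGCTGCTt
SNHG1 site 1, chr11:62620866-62620872, minus strand: caccagtgatgaatTGCTGCTc
The canonical transcript of *MALAT1* (chr11:65265111-65275544, 1 exon) holds both of its sites, 293 and 852 bases from the gene start, and site 1 is followed by an A. Over all transcripts, site 1 lies in 1 of 66 and site 2 in 3 of 66, and the RPKM imply a counted length of 8707 bases where the canonical transcript has 10434, so whether the counted model holds the sites is not known. Of canonical transcripts of like length, 83.1% hold the sequence, so a match in an RNA of this length is common. The 3 sites of *NEAT1* (chr11:65190245-65213011) lie 19458 to 21276 bases from the gene start, in 1 of 9 annotated transcripts, the long form. The RPKM of *NEAT1* imply a counted length of 3735 bases, where the long form has 22743, so the counted model was near the short form in length. *TUG1* (chr22:31365231-31375381) has 1 site in its canonical transcript and 3 over all transcripts, against 70.0% of canonical transcripts of like length with a site. *DLEU2* (chr13:50530806-50699856) has 1 site, against 44.4%. *SNHG1* (chr11:62619450-62623425) has its site in 24 of 80 transcripts and *SNHG5* (chr6:86360209-86388650) in 4 of 89, neither of them canonical. Of canonical transcripts of like length, 20.9% and 23.6% hold a site. *GAS5* (chr1:173827697-173838020) has no match in any of its 91 transcripts, and only 14.5% of canonical transcripts of like length hold one, so no match is the usual case. *EPB41L4A* (chr5:111478138-111755010) has 2 sites in the canonical transcript, against 56.9% of those of like length with a site. *H19* (chr11:2016396-2025782) has 2 and *MEG3* (chr14:101245747-101327368) has 5 over all transcripts, and both have 0 in the canonical transcript. A site is held by 20.2% and 11.5% of canonical transcripts of like length. The RPKM of these genes imply counted lengths of 2235 and 2065 bases, where the canonical transcripts have 1106 and 632. A match is a description of the sequence and was not tested as a binding site.

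In total RNA the snoRNA hosts were the most abundant of the 10 genes, and in Ago2-IP the nuclear RNAs MALAT1 and NEAT1 were. *SNHG5* had an RPKM of 344 in NT cells, 301 after *miR-195* and 336 after *miR-497* in total RNA, and 49.6, 46.8 and 35.7 in the same order in Ago2-IP. *MALAT1* had 26, 35.7 and 24.2 in total RNA against 527, 456 and 585 in Ago2-IP, where it ranked at 3, 12 and 4 among all genes and took 0.459%, 0.397% and 0.509% of all mapped reads. Its total RNA values ranked between 1907 and 3072. The 3 Ago2-IP values of *MALAT1* lay far above all 3 total RNA values, and those of *SNHG5* far below. Of 13298 genes, 6.05% had all 3 values above and 77% all 3 below, by any margin. MALAT1 carries no poly-A tail. The sources used here do not say which libraries had poly-A selection, and its part in these values was not tested.

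**Figure D1:**
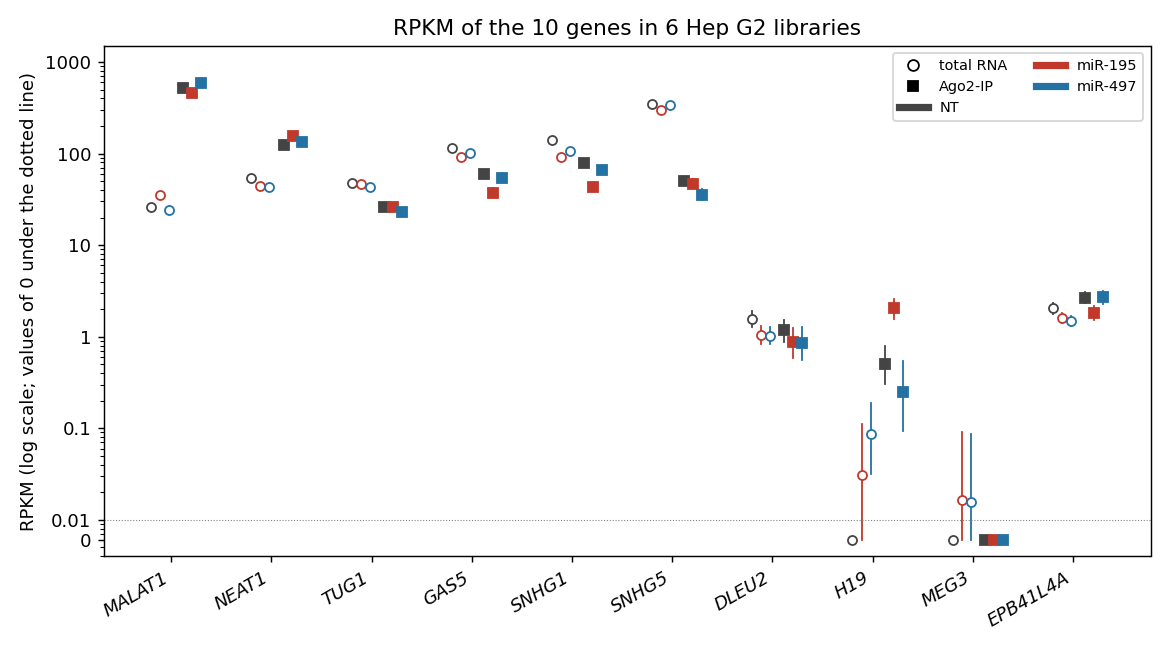
RPKM (log axis, values of 0 drawn under the dotted line) of the 10 genes in each of the 6 libraries, with open circles for total RNA, filled squares for Ago2-IP and color for the condition. Vertical lines are 95% counting intervals, hidden where smaller than the symbol, and the 3 squares of *MALAT1*, *NEAT1* and *H19* all lie above their 3 circles.

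In NT total RNA the order was *SNHG5* (344), *SNHG1* (141), *GAS5* (116), *NEAT1* (54.1), *TUG1* (48.1), *MALAT1* (26), *EPB41L4A* (2.04) and *DLEU2* (1.56), followed by *H19* and *MEG3*, both listed at 0. Neighbours in this order had counting intervals that did not overlap, except *EPB41L4A* and *DLEU2*, and *H19* and *MEG3*. With *miR-195* the intervals of *SNHG1* (92.3) and *GAS5* (92.2), and those of *TUG1* (46.4) and *NEAT1* (44.5), overlapped, and so did these pairs with *miR-497*. In NT Ago2-IP the order was *MALAT1* (527), *NEAT1* (124), *SNHG1* (79.1), *GAS5* (60.4), *SNHG5* (49.6), *TUG1* (26.2), *EPB41L4A* (2.66), *DLEU2* (1.18) and *H19* (0.505), and no neighbouring intervals overlapped. With *miR-195* those of *SNHG5* (46.8), *SNHG1* (42.8) and *GAS5* (37.4) overlapped from neighbour to neighbour, as did *H19* (2.04) and *EPB41L4A* (1.83), and with *miR-497* *H19* (0.252) and *MEG3* (0). In NT cells *SNHG5* was thus at place 1 in total RNA and place 5 in Ago2-IP, and *MALAT1* at place 6 and place 1, while in Ago2-IP with *miR-195* *SNHG5* was at place 3.

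MALAT1, the nuclear speckle RNA, had the highest ratio of Ago2-IP to total RNA among the 8 genes with values in all 6 libraries. It was 20.3 (19.7 to 20.8) in NT cells, 12.8 (12.5 to 13.0) after *miR-195* and 24.2 (23.6 to 24.8) after *miR-497*, from 5593 to 9129 inferred reads in total RNA against 54037 to 77177 in Ago2-IP. Relative to the median of all genes, MALAT1 stood 62.2-fold, 27.2-fold and 92.9-fold higher in the same order. *MALAT1* was above 98.5% to 99.3% of the genes tested. The part of poly-A selection in this ratio was not tested. The exons of the gene on the other strand, *TALAM1*, cover 8121 bases of its canonical transcript, and the reads of both strands cannot be told apart in these libraries because no source states a stranded kit.

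NEAT1, the RNA of paraspeckles, had an RPKM of 54.1, 44.5 and 43.4 in total RNA against 124, 156 and 135 in Ago2-IP, for NT, *miR-195* and *miR-497*. All 3 Ago2-IP values lay above all 3 total RNA values, as they did for 6.05% of 13298 genes. The ratio was 2.28 (2.2 to 2.37), 3.51 (3.39 to 3.64) and 3.1 (2.98 to 3.22), which is 7.0-fold, 7.49-fold and 11.9-fold above the median of all genes. The third nuclear RNA, MEG3, was not measurable: it had 1 inferred read in each of the mimic total RNA libraries (0.0165 and 0.0156 RPKM) and was listed at 0 in the other 4 libraries.

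The snoRNA hosts had ratios on the other side of 1. *GAS5* had an RPKM of 116, 92.2 and 101 in total RNA against 60.4, 37.4 and 54.6 in Ago2-IP, and its ratio was 0.52 (0.473 to 0.571), 0.406 (0.357 to 0.459) and 0.538 (0.478 to 0.604). *SNHG1* had 141, 92.3 and 108 against 79.1, 42.8 and 65.6, with ratios of 0.56 (0.527 to 0.594), 0.464 (0.426 to 0.505) and 0.609 (0.563 to 0.658). All Ago2-IP values of both genes were below all total RNA values, as they were for 77% of 13298 genes. The ratio of *SNHG5* was lower still, at 0.144 (0.13 to 0.159), 0.155 (0.138 to 0.174) and 0.106 (0.0916 to 0.123). Against the median of all genes the hosts differed among themselves. *SNHG5* was under it in each condition, by a log2 of 1.18, 1.59 and 1.29, reading 0.442-fold, 0.332-fold and 0.408-fold. *GAS5* was 1.6-fold above it in NT cells, 0.866-fold with *miR-195* and 2.07-fold above it with *miR-497*, and *SNHG1* was 1.72-fold, 0.99-fold and 2.34-fold.

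TUG1, found in nucleus and cytoplasm, had an RPKM of 48.1, 46.4 and 43.6 in total RNA against 26.2, 26.1 and 23.2 in Ago2-IP. Its ratio was 0.546 (0.524 to 0.569), 0.562 (0.538 to 0.588) and 0.533 (0.506 to 0.56). *DLEU2*, the host of *miR-15a* and *miR-16-1*, had 1.56, 1.05 and 1.03 in total RNA against 1.18, 0.867 and 0.858 in Ago2-IP, and the ranges of the groups overlapped. Its ratios of 0.756 (0.53 to 1.07), 0.825 (0.527 to 1.26) and 0.831 (0.504 to 1.32) rest on 24 to 101 reads per library, and all 3 intervals include 1. The protein-coding *EPB41L4A* had 2.04, 1.61 and 1.49 in total RNA against 2.66, 1.83 and 2.69 in Ago2-IP, overlapping ranges, with ratios of 1.3 (1.08 to 1.57), 1.14 (0.9 to 1.43) and 1.81 (1.45 to 2.25). The exons of *EPB41L4A-AS1* cover 2200 bases of its canonical transcript, and those of *TRIM13* cover 346 bases of *DLEU2*.

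H19, the mainly cytoplasmic RNA, was near the limit of detection. In total RNA it had 0, 2 and 6 inferred reads (0, 0.0305 and 0.0867 RPKM), and in Ago2-IP 19, 62 and 6 reads (0.505, 2.04 and 0.252 RPKM). The Ago2-IP values were above the total RNA values in every condition. For NT cells, where total RNA was listed at 0, a floor of 3 reads per library corresponds to 0.0543 RPKM, and Ago2-IP was at least 9.31-fold higher than this floor. With the counting error of the 19 and 0 reads included, the lower 95% limit of the ratio was 6.86. The ratio was 66.8 with *miR-195*, with an interval from 17.7 to 564 because of the 2 reads in total RNA, and 2.91 (0.777 to 10.9) with *miR-497*.

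**Figure D2:**
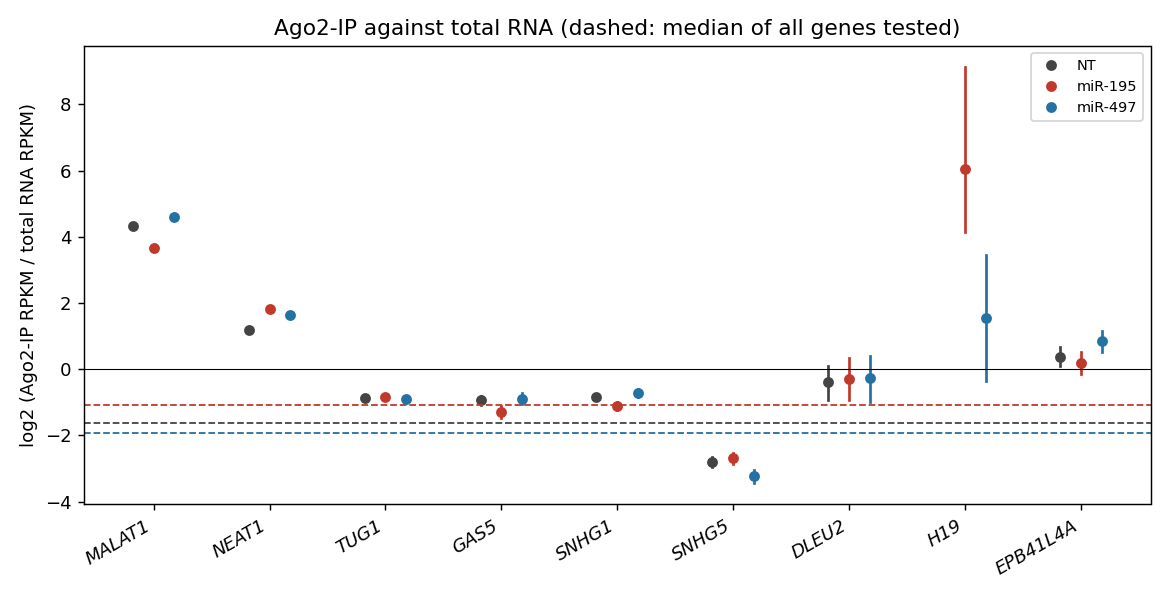
The log2 ratio of Ago2-IP to total RNA RPKM for 9 genes in the 3 conditions, with 95% counting intervals as vertical lines and the median of all genes tested in each condition as dashed lines. *MALAT1* and *NEAT1* lie above 0 and *SNHG5* under the dashed lines in all conditions, *H19* has no NT point because its NT total RNA was listed at 0, and *MEG3* is left out because its Ago2-IP value was listed at 0 in all conditions.

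Counted against the median of all genes, 4 of the 8 genes with values in both NT libraries were at least 2-fold above it (*MALAT1*, *NEAT1*, *EPB41L4A* and *DLEU2*), where 22.7% of all genes tested were, and 1 was at least 2-fold below it (*SNHG5*), against 19.8%. With *miR-195*, 4 of 9 were above (*H19*, *MALAT1*, *NEAT1* and *EPB41L4A*), against 19.8% of all genes, and 1 was below (*SNHG5*), against 15.7%. With *miR-497*, 8 of 9 were above, against 26%, and *SNHG5* was below, against 24.4%. In all 3 conditions 3 of 8 genes were at least 2-fold above the median (*MALAT1*, *NEAT1* and *EPB41L4A*), against 11% of 13298 genes, and 1 was below, against 10.5%. With no centring, 2 of 8 were at least 2-fold above 1 in NT cells and 3 of 9 with *miR-497*. The shares above are for centred ratios and do not apply to these counts. As deposited, all Ago2-IP values were above all total RNA values for 2 of 8 genes, against 6.05% of all genes, and below them for 4 of 8, *TUG1* and the 3 hosts, against 77%. A ratio under 1 was therefore the usual case, and a ratio over 1, as for *MALAT1* and *NEAT1*, was not.

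Over the 3 conditions taken as pairs of Ago2-IP and total RNA, 4 of 8 genes were higher in Ago2-IP relative to the median of all genes and 1 was lower, by limma's moderated test on the centred log2 ratios with Benjamini-Hochberg adjustment over 13298 genes, where 23.6% of all genes were higher and 23% lower at an adjusted p under 0.05. The log2 difference was 5.82 ± 0.37 (SE, n = 3 pairs, limma adjusted p = 0.000765) for *MALAT1* and 3.16 ± 0.25 (limma adjusted p = 0.00134) for *NEAT1*. For *EPB41L4A* it was 2.09 ± 0.33 (limma adjusted p = 0.00633), for *DLEU2* 1.3 ± 0.26 (limma adjusted p = 0.0111) and for *SNHG5* -1.29 ± 0.22 (limma adjusted p = 0.00756), and each of these 5 had its direction in 3 of 3 conditions. *TUG1* (0.75 ± 0.25, limma adjusted p = 0.053), *SNHG1* (0.73 ± 0.3, limma adjusted p = 0.0951) and *GAS5* (0.57 ± 0.3, limma adjusted p = 0.171) did not pass. Without centring, only *MALAT1* (limma adjusted p = 0.00297) and *NEAT1* (0.00562) were higher, *DLEU2* and *EPB41L4A* did not pass (0.216 and 0.136), and *SNHG5*, *SNHG1*, *GAS5* and *TUG1* were lower. Without the *miR-195* pair, *GAS5*, *SNHG1* and *TUG1* also passed as higher than the median of all genes (limma adjusted p = 0.0259, 0.0148 and 0.0221). The 3 pairs are 3 conditions and not replicates of 1, so their spread holds any effect of the mimics on the ratio. The sources used here do not say which libraries had poly-A selection. The test cannot separate binding to Ago2 from such a difference between the kinds of library.

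Nuclear RNAs that carry no poly-A tail stood higher than MALAT1 in the same ratio in NT cells. Of the 12 on the list, 11 had a line and 7 had values in both NT libraries, and all 7 were at least 2-fold above the median of all genes, against 22.7% of all genes. *RMRP*, the RNA of RNase MRP, had 4826 RPKM in NT Ago2-IP, a ratio of 2461, *RPPH1*, the RNA of RNase P, had 2.49 and 171, and *SCARNA13*, a Cajal body RNA, had the lowest ratio of the list at 35.3. MALAT1, whose end is formed by cleavage without a poly-A tail, lay between these RNAs and NEAT1, whose short form carries a tail, in NT cells. With *miR-195* 9 of these RNAs had values in both libraries and with *miR-497* 7 had, with ratios from 6.46 to 1560.1 and from 11.8 to 204, which include those of MALAT1. In total RNA *RPPH1* had 2.49, 6.3 and 34 RPKM for NT, *miR-195* and *miR-497*, and 6 of 7 such RNAs were at least 2-fold above the median change with *miR-497*, against 5.79% of all genes. The kit was used with or without poly-A selection, the sources used here do not say for which libraries, and the part of poly-A selection in the ratios was not tested. The cytoplasmic mRNAs on the fixed list were at the other end. Of 10, 9 were at least 2-fold below the median of all genes in NT cells, against 19.8% of all genes. The ratios of the 10 ran from 0.0401 for *GAPDH*, the glycolytic enzyme, to 0.258 for *APOB*, the lipoprotein carrier.

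Other long noncoding RNAs lay mostly above the median. Of 26 symbols on the list 18 had a line and 10 were above 0 in both NT libraries, of which 9 lay above the median. At least 2-fold above the median were 6 and below 0, against 22.7% and 19.8% of all genes, with a median log2 of 1.82 against 0 for all genes. *TERC*, the RNA of telomerase, had the highest ratio, 28.7 (0.179 RPKM in total RNA against 5.14 in Ago2-IP), and *DLEU1*, the neighbour of *DLEU2*, had both the highest total RNA value (20.7) and the lowest ratio (0.233). Read numbers were not inferred for this list. *TERC*, *MIAT* (0.00794 RPKM) and *MIR155HG* (0.0861 RPKM) were low in NT total RNA. All of them are counted as 2-fold above, and their ratios rest on few reads. The other noncoding snoRNA hosts kept nearer to the median. Of 21 symbols 12 had a line and 10 were tested in NT cells, with a median log2 of 0.51. At least 2-fold above were 3 and below was 1, against 22.7% and 19.8% of all genes, so the count above was near that of all genes. *NCRNA00188*, the most abundant of them in NT total RNA, had a ratio of 0.169 and 33.7 RPKM in Ago2-IP. The ratio ran from 0.159 for *SNHG6* to 1.44 for *SNHG3*. NCRNA00219, the host opposite *EPB41L4A*, had 8.97 and 8.06 RPKM in NT cells, a ratio of 0.898.

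**Figure D3:**
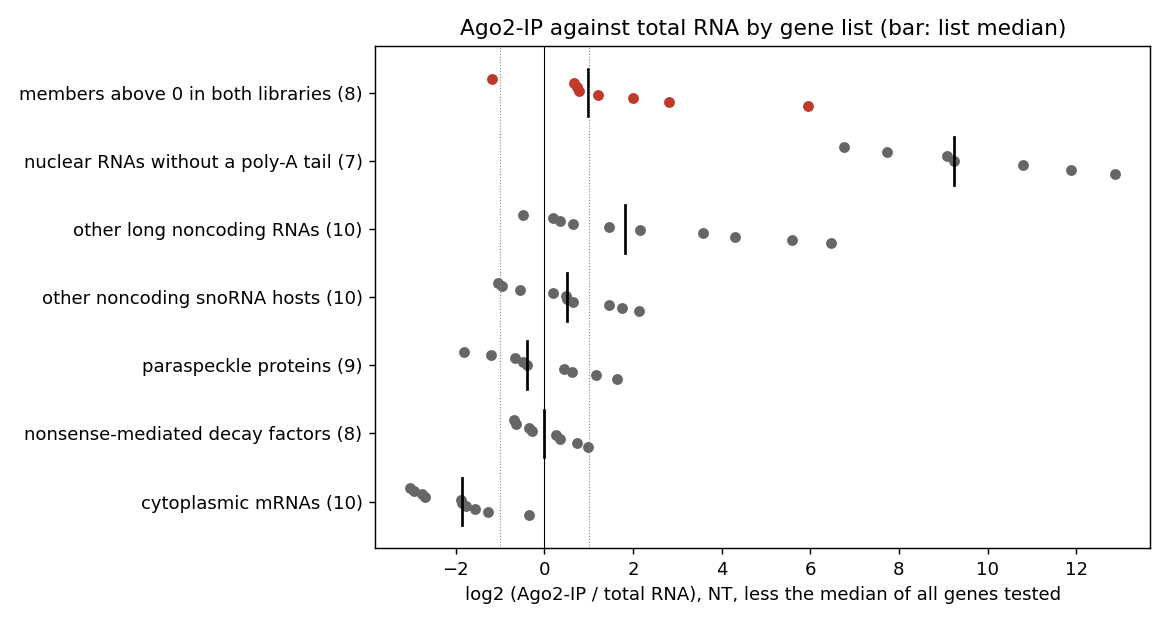
The log2 ratio of Ago2-IP to total RNA RPKM in NT cells less the median of all genes tested, for the 8 genes with values in both libraries (red) and for 6 gene lists (grey), where each point is 1 gene, black bars are medians and the number tested is in brackets. Nuclear RNAs without a poly-A tail lie furthest to the right (median 9.25) and cytoplasmic mRNAs furthest to the left (median -1.86).

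The snoRNAs cut from the introns of the hosts had higher ratios of Ago2-IP to total RNA than the spliced hosts. All 20 snoRNAs of *GAS5* (10), *SNHG1* (8) and *SNHG5* (2) had a line, and in each of the 3 conditions the ratio of Ago2-IP to total RNA of every one of them was above that of its own host. As for the nuclear RNAs above, the part of poly-A selection in this contrast was not tested, so it cannot be read as a difference in binding to Ago2. In NT cells the snoRNAs of *GAS5* had a median ratio of 2.03 (0.665 to 11.3) against 0.52 for the host, those of *SNHG1* a median of 2.19 (1.27 to 3.38) against 0.56, and those of *SNHG5* a median of 3.43 (3.34 to 3.53) against 0.144. The lowest was *SNORD81* of *GAS5*, with 39.5 RPKM in total RNA against 26.3 in Ago2-IP, and the highest *SNORD74* of *GAS5*, with 1.68 and 19. Per length the hosts were the more abundant in total RNA, where the snoRNAs of *GAS5* had a median of 27.1 RPKM against 116 for the host and those of *SNHG5* 5.83 against 344.

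**Figure D4:**
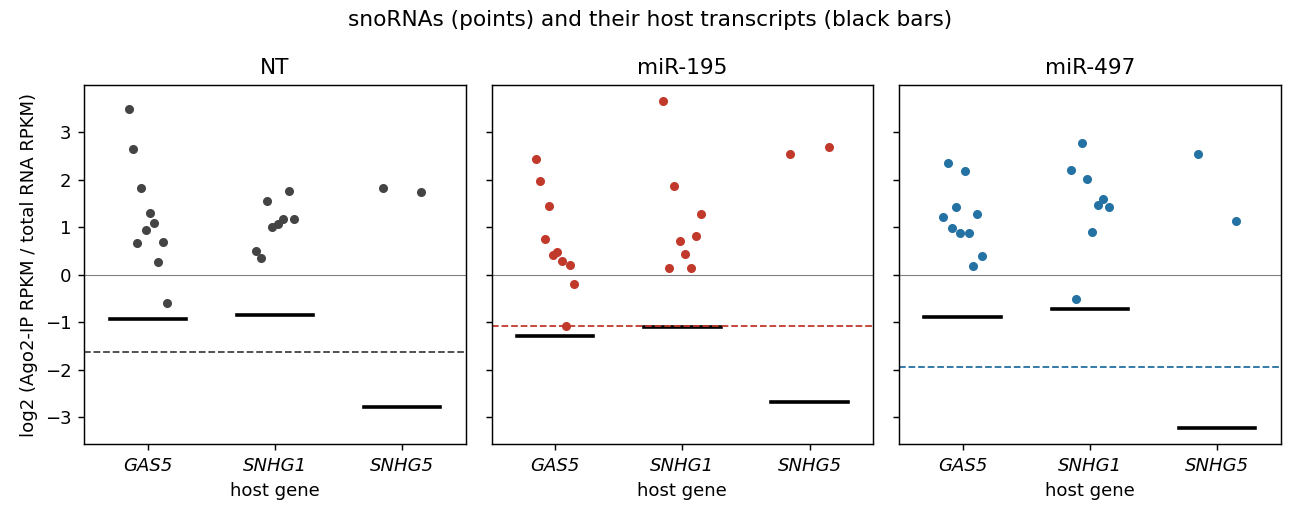
The log2 ratio of Ago2-IP to total RNA RPKM for each snoRNA (points) and for the host transcript it is cut from (black bars), in 1 panel per condition, with the median of all genes tested as a dashed line. In every panel all points lie above the bar of their host.

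Other snoRNAs of this class, the SNORD genes, lay in the same direction. Of 20 snoRNAs 20 were at least 2-fold above the median of all genes in NT cells, 18 after *miR-195* and 20 after *miR-497*, and of all SNORD genes 115 of 121, 113 of 130 and 125 of 130 were. Of all genes tested, 22.7%, 19.8% and 26% were in the same order. The counts behind them are small. With annotated lengths, the NT total RNA values of the *GAS5* snoRNAs correspond to 3 to 79 reads, those of the *SNHG1* snoRNAs to 20 to 125 and those of the *SNHG5* snoRNAs to 10 to 11. *SNORA13*, the snoRNA of *EPB41L4A-AS1*, had ratios of 4.9, 24.4 and 6.78 against 0.898, 1.21 and 0.649 for NCRNA00219, from 3 to 6 reads in total RNA.

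In total RNA most of the 10 genes were lower with the mimics, but none by as much as 2-fold. With *miR-195* the change against NT cells was largest for *SNHG1*, at 0.653-fold (0.623 to 0.685), from an RPKM of 141 to 92.3. *DLEU2* read 0.676-fold (0.498 to 0.915), *EPB41L4A* 0.786-fold (0.652 to 0.948), *GAS5* 0.794-fold (0.742 to 0.851), *NEAT1* 0.822-fold (0.79 to 0.855) and *SNHG5* 0.876-fold (0.84 to 0.914), while *TUG1* was close to its NT value at 0.965-fold (0.937 to 0.994). *MALAT1* was the only gene of the 8 tested that was higher, at 1.38-fold (1.33 to 1.42). The median change of all genes was 1.01-fold, 7 of 8 genes lay under it, where 50% of all genes do by construction, and 0 of 8 were 2-fold above or below it, against 5.68% and 3.33% of all genes.

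With *miR-497* the largest changes were at *DLEU2*, 0.664-fold (0.491 to 0.896), *EPB41L4A*, 0.728-fold (0.603 to 0.879), and *SNHG1*, 0.762-fold (0.728 to 0.797). *NEAT1* read 0.803-fold (0.772 to 0.835), *GAS5* 0.874-fold (0.818 to 0.934), *TUG1* 0.907-fold (0.881 to 0.934), *MALAT1* 0.93-fold (0.897 to 0.964) and *SNHG5* 0.978-fold (0.939 to 1.02). All 8 lay under the median change of all genes, 1.06-fold, where 50% do by construction, and 0 of 8 were 2-fold above or below it, against 5.79% and 2.47%. Both comparisons use the same NT library, so a deviation of that library enters both. *GAS5*, without a match to the seed, and *SNHG1*, with a match in 24 of 80 transcripts, were both under the median, and with 1 library per condition their difference could not be tested.

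**Figure D5:**
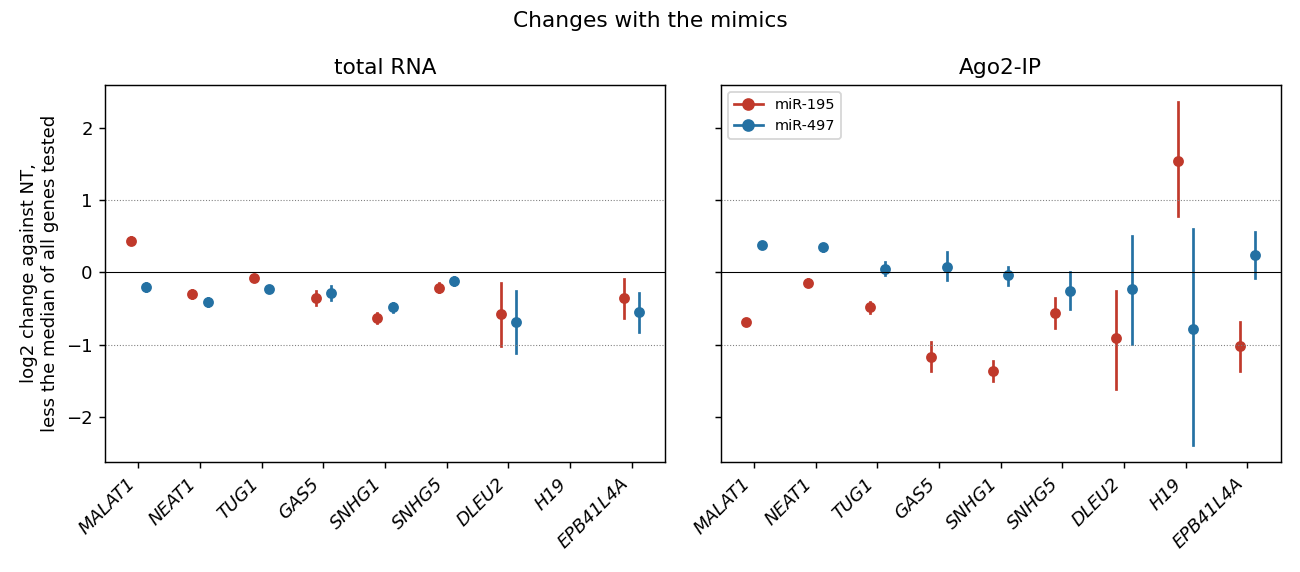
Log2 change with each mimic against NT cells, less the median change of all genes tested, in total RNA (left) and Ago2-IP (right), with 95% counting intervals as vertical lines and dotted lines at a 2-fold difference. In total RNA all points stay within the dotted lines, and in Ago2-IP *GAS5*, *SNHG1* and *EPB41L4A* lie under the lower line and *H19* over the upper line with *miR-195*.

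In the Ago2-IP libraries the changes were wider with *miR-195* than with *miR-497*. With *miR-195*, *SNHG1* went from an RPKM of 79.1 to 42.8 (0.542-fold, 0.493 to 0.594), *GAS5* from 60.4 to 37.4 (0.619-fold, 0.537 to 0.712) and *EPB41L4A* from 2.66 to 1.83 (0.685-fold, 0.542 to 0.863), while the median of all genes was 1.39-fold. These 3 of 9 genes were at least 2-fold below the median, against 7% of all genes. *H19* was the 1 gene at least 2-fold above it, against 9.62%, with 62 reads after 19 (4.03-fold, 2.38 to 7.14). *MALAT1* read 0.865-fold (0.856 to 0.875), *SNHG5* 0.944-fold (0.814 to 1.09), *TUG1* 0.994-fold (0.943 to 1.05) and *NEAT1* 1.26-fold (1.23 to 1.3), all under the median of all genes, and 8 of 9 genes lay under it, against 50% by construction. As deposited, without centring, 0 genes were 2-fold below 1, a count to which the 7% does not apply.

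With *miR-497* the median of all genes in Ago2-IP was 0.855-fold, and 0 of 9 genes were 2-fold above or below it, against 4.67% and 3.94%. *MALAT1* read 1.11-fold (1.1 to 1.12) and *NEAT1* 1.09-fold (1.05 to 1.13), the 2 genes whose intervals lay above the median. *SNHG5* read 0.721-fold (0.605 to 0.857), *SNHG1* 0.829-fold (0.759 to 0.905), *TUG1* 0.885-fold (0.835 to 0.939) and *GAS5* 0.904-fold (0.79 to 1.03), with 4 of 9 genes under the median, against 50%. *H19* had 6 reads after 19 (0.499-fold, 0.163 to 1.3), so its value with this mimic was not distinguishable from NT cells at this depth.

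The snoRNAs had values of their own in these libraries. With *miR-195* 11 of 20 were at least 2-fold below the median change in Ago2-IP and 1 above, against 43 and 16 of 141 SNORD genes and 7% and 9.62% of all genes. The 1 above was *SNORD22* of *SNHG1*, the most abundant snoRNA of this host in NT total RNA, with Ago2-IP RPKM of 56.6 in NT cells, 296 after *miR-195* and 145 after *miR-497*. Its total RNA values were 40.1, 23.5 and 31.3, so Ago2-IP and total RNA went in opposite directions. The other snoRNAs of *SNHG1* with *miR-195* ran from 16.6 to 62.7 RPKM in Ago2-IP, with 6 of these 7 at least 2-fold below the median, as the host was.

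The fold enrichment score of the study divides the ratio of Ago2-IP to total RNA with a mimic by the same ratio in NT cells, and was used to rank candidate targets. With *miR-195* the score of *NEAT1* was 1.54 (1.46 to 1.62), and those of *DLEU2*, *SNHG5* and *TUG1* were 1.09 (0.641 to 1.86), 1.08 (0.927 to 1.25) and 1.03 (0.97 to 1.09). Under 1 were *EPB41L4A* at 0.872 (0.652 to 1.17), *SNHG1* at 0.829 (0.748 to 0.92), *GAS5* at 0.78 (0.668 to 0.91) and *MALAT1* at 0.629 (0.607 to 0.651). Over all 13749 genes tested the median score was 1.38, and 7 of 8 genes lay under it, against 50%. *MALAT1* was the 1 gene at least 2-fold below the median, against 6.86% of all genes, and 0 were 2-fold above, against 8.86%. The score of *MALAT1* combines a total RNA value that was 1.38-fold higher with an Ago2-IP value that was 0.865-fold.

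With *miR-497* the scores were 1.39 (1.05 to 1.84) for *EPB41L4A*, 1.36 (1.29 to 1.43) for *NEAT1*, 1.19 (1.15 to 1.24) for *MALAT1*, 1.1 (0.625 to 1.93) for *DLEU2*, 1.09 (0.987 to 1.2) for *SNHG1*, 1.03 (0.892 to 1.2) for *GAS5*, 0.976 (0.914 to 1.04) for *TUG1* and 0.737 (0.619 to 0.878) for *SNHG5*. The median of 13430 genes was 0.824, *SNHG5* was the 1 gene of 8 under it, against 50%, and 0 were 2-fold above or below it, against 5.1% and 9.95%. No score could be given for *H19* or *MEG3*, which were listed at 0 in NT total RNA. *MALAT1* was thus at least 2-fold under the median with *miR-195* and above it with *miR-497*. The difference between the mimics was not tested, and both scores share the NT libraries.

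Proteins that work with these RNAs were described from their mRNAs. Of 9 paraspeckle proteins, 2 were at least 2-fold above and 2 below the median ratio of Ago2-IP to total RNA in NT cells, against 22.7% and 19.8% of all genes, with a median log2 of -0.39. The mRNA of *PSPC1* had the highest ratio (1.02), that of *HNRNPK* the lowest (0.0921), and that of *SFPQ*, an essential paraspeckle protein, had 175, 150 and 147 RPKM in total RNA against 128, 113 and 50.6 in Ago2-IP. In Ago2-IP with *miR-497*, *SFPQ* and *PSPC1* (33.0 in NT cells and 14.1 with the mimic) were the 2 of 9 at least 2-fold below the median change, against 3.94% of all genes, and the NEAT1 value in the same library was 135. Of 8 factors of nonsense-mediated decay, the pathway that degrades spliced snoRNA hosts, 0 were 2-fold above or below the median ratio in NT cells. Of all genes, 22.7% and 19.8% were. The median log2 was 0.0, and ratios ran from 0.204 for *UPF3A* to 0.646 for *SMG1*. With *miR-195* 0 were above and 0 below, against 19.8% and 15.7%. With *miR-497* 1 was above and 1 below, against 26% and 24.4%. In total RNA 0 of these 8 were 2-fold above or below the median change with *miR-195*, against 5.68% and 3.33% of all genes. With *miR-497* 0 were, against 5.79% and 2.47%.

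Of the neighbours of the imprinted and miRNA-host genes, *IGF2*, the growth factor gene next to *H19*, had 3.88, 4.82 and 10.9 RPKM in total RNA against 7.78, 64.7 and 6.59 in Ago2-IP, so that *IGF2* and *H19* both had their highest Ago2-IP value with *miR-195*. *DLK1*, in the imprinted locus of *MEG3*, had 97.0, 112 and 153 in total RNA against 6.54, 20.8 and 5.19 in Ago2-IP, while MEG3 was at 0 or 1 read. In the same Ago2-IP comparison with *miR-195*, 4 of the 10 cytoplasmic mRNAs were at least 2-fold above the median and 0 below, against 9.62% and 7% of all genes, and the part of this shift in the *H19* value was not tested. The 3 mRNAs of the IGF2 mRNA-binding proteins, which also bind H19, had ratios from 0.304 to 0.359 in NT cells. Of these, 0 of 3 were 2-fold above or below the median, against 22.7% and 19.8% of all genes.

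Genes were also ranked by how like their values over the 6 libraries were to those of the genes described here. Likeness was the distance between the 6 log2 RPKM values, each less its gene's mean, over 8582 genes that had 1 RPKM or more in every library. The nearest to *MALAT1* was *KCNQ1OT1*, a nuclear imprinted long noncoding RNA, at a distance of 0.65, with 1.05, 1.37 and 1.25 RPKM in total RNA against 16.4, 15.6 and 17.5 in Ago2-IP. *SNORD49B* (distance 1.3) and *SCARNA12* (1.41) followed. Nearest to *GAS5* were *LUC7L3* (0.18), *PNN* (0.19) and *KIAA0586* (0.19), mRNAs whose Ago2-IP values were also lowest with *miR-195*, as for *PNN* with 98.5, 68.2 and 98.0. Such shared patterns follow from how the nearest genes were chosen and are no separate result. For *H19* likeness could not be computed, because it was under 1 RPKM in 5 libraries.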

How the data were processed

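RNA of Hep G2 cells was measured by Ago2-IP-seq and mRNA-seq, 1 library per RNA and condition. The authors aligned 36-base reads to hg19, converted them to RPKM with CASAVA 1.7 (submitters' processing notes) and deposited an RPKM for every gene in each library. Strand, gene models and the libraries with poly-A selection are not given in the sources used here. Column headers were matched to the samples, and 0 columns were left over. RPKM of 28 symbols with several lines were averaged, none of them among the 10 genes. The genes and lists were chosen with earlier results of these data known. Named genes of a list are those with the highest NT total RNA RPKM and with the highest and lowest NT ratio, and other names were chosen after their values were seen.

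A gene entered a comparison when its RPKM was above 0 in each library of it, and log2 ratios were taken without a pseudocount and centred on the median of all genes tested. A difference of 2-fold was counted, a limit of size and not a test. Added after the values had been seen, limma 3.58.1 in R 4.3.3 was fitted to the centred log2 ratios of genes above 0 in all 6 libraries, 1 pair per condition, since the methods of the study take both RNAs from the same samples, with adjusted p under 0.05 as the threshold. Read numbers were inferred by finding the gene length at which the RPKM in 6 libraries give whole reads or whole bases of reads. Whole reads were found for 79.2% of 15487 genes. In simulated reads of 3000 genes in 6 libraries they were equal to the truth for 98.0%, and the lengths of 300 genes were recovered for 99.3%. The simulation held whole reads only. It does not cover *GAS5*, *SNHG1* and *DLEU2*, whose RPKM were fitted as whole bases of reads. Intervals are exact binomial for 2 libraries, exact Poisson for levels and normal on the log scale for scores. They assume independent reads, although reads without molecular identifiers can be PCR copies. Spliced transcripts, gene types and opposite-strand exons came from GENCODE release 44 on GRCh37, where *TUG1* and *EPB41L4A* are typed as protein-coding, and mature miRNAs from RefSeq, where 4 of 4 names matched. Like length is within 10% of the canonical transcript. Calculations were made in Python 3.11.15 (scipy 1.17.1, pandas 2.3.3, numpy 2.4.6) and plots in matplotlib 3.10.9. Alternatives were pseudocounts of 0.1 and 1, minimum RPKM of 0.1 and 1, no centring, centring on genes with an RPKM of at least 10, and the first line of each symbol.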

Additional observations from a re-analysis of the deposited data

Results flagged for a closer look

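Several genes lay on opposite sides of the median of all genes for the 2 mimics, counting intervals included. The differences were not tested, each rests on 1 library per condition, and the comparisons share the NT libraries. For *MALAT1* the log2 change relative to the median was 0.44 after *miR-195* and -0.2 after *miR-497* in total RNA, while in Ago2-IP it was -0.68 and 0.38, so that its log2 score was -1.13 and 0.54. *NEAT1* had -0.14 and 0.35 in Ago2-IP, on opposite sides of the median, although its RPKM was above the NT value in both libraries. For the score relative to the median, *GAS5* had a log2 of -0.82 and 0.33, *SNHG1* -0.74 and 0.4, *TUG1* -0.42 and 0.24 and *EPB41L4A* -0.66 and 0.75. The median of all genes itself was a log2 of 0.47 after *miR-195* and -0.28 after *miR-497*. Of these scores as deposited, that of *MALAT1* had intervals on opposite sides of 1 (0.629, 0.607 to 0.651, against 1.19, 1.15 to 1.24), while that of *TUG1* included 1 for both mimics (1.03, 0.97 to 1.09, against 0.976, 0.914 to 1.04).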

How the results depend on the processing

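In the test over pairs, added after the values had been seen, the fit without the pairing (no replicate block) gave 5 genes higher and 1 lower against 4 and 1 with it, since *TUG1* passed (limma adjusted p = 0.0318), and a minimum RPKM of 1 gave 6 of 7 higher and 1 lower, with *TUG1*, *GAS5* and *SNHG1* but not *DLEU2*, which was then not tested. As deposited it gave 2 higher and 4 lower, where 699 and 9833 of all genes were against 3143 and 3064 with centring, and the log2 difference turned negative for *GAS5* (-1.05), *SNHG1* (-0.89), *TUG1* (-0.87) and *DLEU2* (-0.32). Leaving out 1 condition gave 4 to 7 higher and 1 lower. Centring mattered most elsewhere too. With values as deposited, the number of genes at least 2-fold above 1 in the ratio of Ago2-IP to total RNA was 2 in NT cells and 3 for *miR-497*, and 3 were 2-fold below for *miR-195*. In Ago2-IP 0 genes were then 2-fold below for *miR-195*, 1 was for *miR-497*, and 0 scores were 2-fold below for *miR-195*. The shares of all genes given for 2-fold limits are for centred values and do not apply to these counts. Without centring the log2 ratio turned negative for *DLEU2* in NT cells (-0.4) and, for *miR-497*, for *DLEU2* (-0.27), *GAS5* (-0.89), *SNHG1* (-0.72) and *TUG1* (-0.91), and the median of the genes with values became -0.62 in NT cells and -0.27 for *miR-497*. It also turned negative for *GAS5* (-0.94), *SNHG1* (-0.84) and *TUG1* (-0.87) in NT cells and, for *miR-195*, for *TUG1* (-0.83), *DLEU2* (-0.28) and the median (-0.28). In all, 21 of 85 single values and medians changed direction without centring, 5 with centring on genes with an RPKM of at least 10, 5 with a pseudocount of 1, and 1 with either minimum RPKM. The medians of all genes, log2 of -1.62, -1.09 and -1.94, set these shifts. Centring on genes with an RPKM of at least 10 gave 7 above and 0 below in NT cells. A minimum RPKM of 1 gave 0 below in NT cells and, since *H19* was then not tested, 0 above for *miR-195* in Ago2-IP. A pseudocount of 1 gave 5 above for *miR-497*, 0 above and 1 below for *miR-195* in Ago2-IP, and 0 scores below for *miR-195*. Using the first line of a symbol or a pseudocount of 0.1 changed no direction of 85 single values and medians each. Of the 126 counts recomputed, 112 stayed within 1.5 times. Depth limited *H19*, *MEG3* and *DLEU2*, and counting intervals hold no variation between cultures.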
